A study of Mus musculus with 6 samples.

Results

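The Polyhomeotic family of the mouse has 3 genes, Phc1, Phc2 and Phc3, and all 3 were found by symbol among the 37620 genes counted in each library. Their RNA was measured in cultured cells of the J1 line, with 2 libraries in each of 3 groups. The first group is labelled Phc1-KO (genotype Phc1-/-, derived from J1 ESC). The second is neural progenitor cells (NPC, wild type), made in culture from J1 cells, and the third is J1 embryonic stem cells (ESC, wild type). Per the labels, stem cells were grown with LIF and serum on inactivated embryonic fibroblast feeders, which were removed before use. The sources used here do not say whether the Phc1-/- cells are 1 clone or which part of Phc1 was deleted. The labels name the 2 libraries of a group biological replicates but not separate cultures, so p-values measure the spread between these libraries, which may be in part technical.

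Polyhomeotic proteins are subunits of canonical Polycomb repressive complex 1 (PRC1), which binds chromatin carrying methylated histone H3 and compacts it, keeping developmental genes silent. Each carries a sterile alpha motif (SAM) domain at its C-terminal end, through which Polyhomeotic proteins join head to tail into chains that cluster PRC1 on chromatin. A second conserved segment, homology domain HD1, binds the PCGF subunit Bmi1. Canonical PRC1 combines a Polyhomeotic subunit with a RING ligase (Ring1 or Rnf2), a PCGF protein (Bmi1 or Pcgf2) and a CBX chromodomain protein. In embryonic stem cells Phc1 is known as the main Polyhomeotic gene in use.

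Because the paralogs are related, it was first asked whether 50-base reads could be told apart. The 90-base coding stretch shown here is the window of Phc1 with the most bases matching Phc2 and Phc3, at any ungapped offset between the longest coding sequences. It lies in the part coding for HD1 and is shown as the stretch where the 3 genes are most alike by that measure. It starts at coding base 2185 of Phc1, 1648 of Phc2 and 2065 of Phc3, is read 5′ to 3′ on the coding strand from mm9 transcripts, and has in capitals the 25 positions at which the 3 sequences are not all equal.
Phc1: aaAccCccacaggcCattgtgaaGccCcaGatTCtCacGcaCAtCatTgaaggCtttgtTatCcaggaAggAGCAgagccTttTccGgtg
Phc2: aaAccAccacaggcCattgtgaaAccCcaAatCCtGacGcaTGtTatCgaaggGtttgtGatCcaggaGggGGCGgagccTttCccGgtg
Phc3: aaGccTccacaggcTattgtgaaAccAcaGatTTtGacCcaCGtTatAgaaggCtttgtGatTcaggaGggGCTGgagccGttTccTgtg
Of the 25 positions, 21 were at the third base of a codon, 3 at the first and 1 at the second. Phc1 and Phc2 shared 75 of the 90 bases, Phc2 and Phc3 shared 73, and Phc1 and Phc3 shared 70. In the best 90-base window of each pair alone, Phc2 and Phc3 shared 76 and Phc1 and Phc3 shared 72. Over the same coding sequences at any offset, the longest identical run was 17 bases for Phc1 with Phc2, 15 for Phc1 with Phc3 and 20 for Phc2 with Phc3. Over all annotated coding transcripts, Phc1 gave 5567 different 50-base sequences, Phc2 gave 4912 and Phc3 gave 11865. Of these, 0 occurred in another Polyhomeotic gene, 0 in the coding transcripts of any other gene and 0 elsewhere in the mm9 genome, on either strand. Matches with mismatches were not searched.

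The genes lie on different chromosomes. Phc1 (ENSMUSG00000040669) spans chr6:122267749-122290579 on the minus strand of mm9, Phc2 (ENSMUSG00000028796) chr4:128331982-128430125 on the plus strand, and Phc3 (ENSMUSG00000037652) chr3:30798217-30868337 on the minus strand. Their annotated exons join to 5297, 7030 and 14670 bases in that order, and the annotation has 0 genes overlapping any of them. Levels are therefore given per length, as RPKM (reads per kilobase of joined exon, scaled to library size by TMM). Between 361 and 7570 reads were counted per member and library, among 15226214 to 21893821 gene reads per library.

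The group labels were checked against marker genes. The 10 ESC markers, among them Pou5f1, Nanog and Zfp42, summed to 2292 and 2772 CPM (the same scaled read count without the length) in the libraries labelled Phc1-KO, to 7.04 and 7.40 CPM in NPC, and to 2302 and 2315 CPM in ESC, with Utf1, Dppa3 and Tcl1 at 0 counts in both NPC libraries. The 9 NPC markers counted, among them Nes, Olig2 and Fabp7, summed to 203 and 184 CPM in the libraries labelled Phc1-KO, against 4745 and 2208 CPM in NPC and 209 and 219 CPM in ESC. Hes5, also among them, was near 0 throughout and not tested, with means of 0.295 CPM in NPC and 0.305 CPM in ESC. Fibroblast markers, read further below, summed to more than the NPC markers in both NPC libraries, at 7313 and 11787 CPM. The cell type entry of the Phc1-KO samples reads NPC while the series title calls them ESC. By the sums of ESC and NPC markers these samples stood with ESC, while single markers differed from ESC. Among the NPC markers, Pax6 had 21.5 and 20.8 CPM in Phc1-KO, 21.0 and 16.9 CPM in NPC, and 4.44 and 4.68 CPM in ESC, and rose in Phc1-KO against ESC (log2 fold change 2.21, SE 0.20, edgeR adjusted p = 0.00327). Among the ESC markers, Dppa3 fell by 2.63, Tcl1 by 1.13 and Nanog by 0.83 in Phc1-KO against ESC, and Fgf4 rose by 0.64.

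The targeted gene was read first. Phc1 had 61.6 and 50.5 RPKM in the 2 libraries labelled Phc1-KO, against 7.71 and 6.53 RPKM in NPC and 86.8 and 86.9 RPKM in ESC. Both libraries labelled Phc1-KO were below both ESC libraries and far above both NPC libraries. The raw reads behind these values were 6230 and 5529 for Phc1-KO, 621 and 533 for NPC, and 7453 and 7570 for ESC. Relative to the ESC mean, Phc1 RNA stood at 70.9% and 58.1% in the libraries labelled Phc1-KO, and at 8.88% and 7.52% in NPC. Scaled by total gene counts instead, the Phc1-KO values were 68.6% and 53.4%. Gene totals do not show which exons the remaining reads came from, so these libraries are called by their label throughout.

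Phc2 had 3.29 and 2.48 RPKM in the libraries labelled Phc1-KO, 19.5 and 13.02 RPKM in NPC, and 3.76 and 3.50 RPKM in ESC. NPC was thus the high group, with no overlap, and the libraries labelled Phc1-KO were both slightly below ESC. For Phc3 the levels were 4.12 and 3.59 RPKM in the libraries labelled Phc1-KO, 10.2 and 12.1 RPKM in NPC, and 5.18 and 5.14 RPKM in ESC. Its order of groups was the same as that of Phc2, and again no groups overlapped. Here and below, a lack of overlap alone sets no gene apart. Between 2 groups of 2 libraries it gives p = 0.333 in a two-sided exact permutation test.

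**Figure D1:**
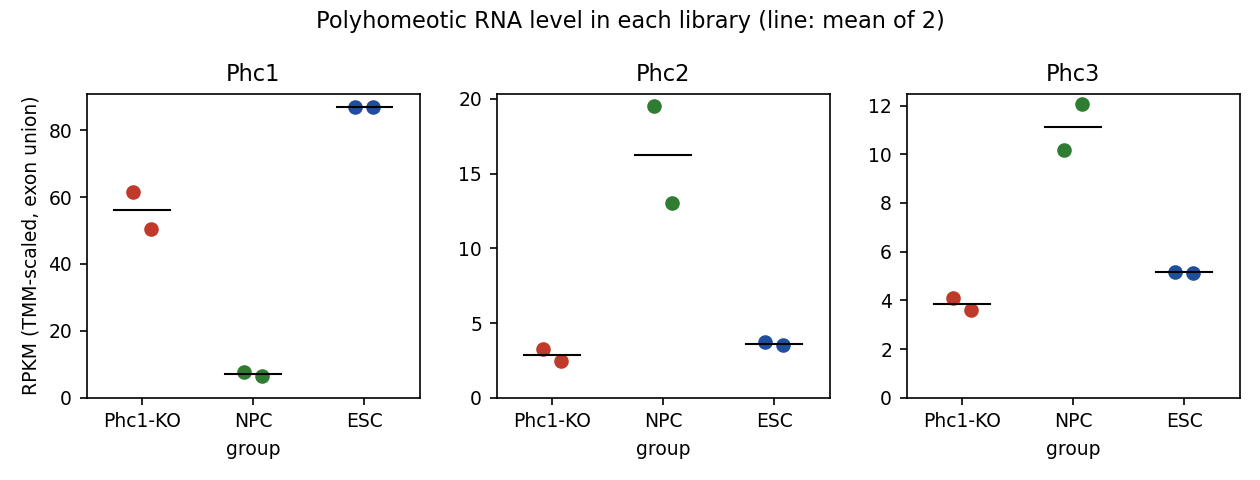
RPKM (vertical axes, linear from 0, 1 scale per gene) of Phc1, Phc2 and Phc3 in each of the 6 libraries by group; points are libraries and the line is the mean of 2. Phc1 is high in Phc1-KO and ESC and low in NPC, while Phc2 and Phc3 are highest in NPC.

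The ESC pair lay closer together than the other pairs for each member. Replicate 2 held 0.820 times the Phc1 level of replicate 1 in Phc1-KO and 0.847 times in NPC, against 1.002 times in ESC. The widest pair was Phc2 in NPC, where replicate 2 held 0.668 times the level of replicate 1, a log2 difference of -0.58 when counting alone gives an SD of 0.0497. The libraries labelled Phc1-KO differed for Phc2 by a factor of 0.754, or -0.41 on the log2 scale against a counting SD of 0.102.

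Among the 17439 tested genes with an annotated length, ordered from the highest RPKM down, Phc1 ranked 981 and 1476 in the libraries labelled Phc1-KO, 7322 and 8033 in NPC, and 549 and 555 in ESC. Phc2 ranked 9793 and 10426 in Phc1-KO, 3431 and 4979 in NPC, and 9500 and 9700 in ESC. Phc3 moved least, at ranks 9079 and 9354 in Phc1-KO, 6092 and 5340 in NPC, and 8409 and 8397 in ESC. Phc1 was therefore among the more abundant RNAs per length in the libraries labelled Phc1-KO and in ESC, and lay in the middle of the range in NPC.

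The comparison of the libraries labelled Phc1-KO with ESC asks how far the knock-out label is seen in Phc1 RNA and whether the remaining paralogs differ. Phc1 averaged 56.0 ± 7.85 RPKM in Phc1-KO and 86.9 ± 0.107 RPKM in ESC (SD, n = 2 each), and fell by 0.63 on the log2 scale (SE 0.15, 95% interval -0.98 to -0.28). This passed edgeR's quasi-likelihood test with Benjamini-Hochberg adjustment over the 17489 genes tested (adjusted p = 0.0412), as 5.75% of genes did in that direction and 10.7% in either. Those genes split into 858 higher and 1006 lower, and into 683 and 1223 with total-count scaling. The Phc1 call depended on single libraries and on the filter. The number of all genes called in this comparison also changed with the libraries kept, as given in the closing section. By edgeR the adjusted p was 0.316 without ESC 1, 0.304 without ESC 2, 0.135 without Phc1-KO 2, 0.295 with the 2 ESC libraries counted as 1, and 0.0528 with no low-count filter.

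Neither remaining paralog passed. Phc2 averaged 2.89 ± 0.572 RPKM in Phc1-KO and 3.63 ± 0.177 RPKM in ESC (SD, n = 2 each), a log2 fold change of -0.33 (SE 0.23, 95% interval -0.88 to 0.22; edgeR adjusted p = 0.389). Phc3 averaged 3.85 ± 0.374 RPKM in Phc1-KO and 5.16 ± 0.0239 RPKM in ESC (SD, n = 2 each), a log2 fold change of -0.42 (SE 0.14, 95% interval -0.76 to -0.08; edgeR adjusted p = 0.105). In both genes each library labelled Phc1-KO was below each ESC library, but at 2 against 2 that order alone sets neither gene apart. Genes that did not pass, such as Ring1 and Cbx6, had groups without overlap too. The upper end of the interval was 0.22 for Phc2 and -0.08 for Phc3.

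Only Phc1 passed among the 3, and the interval of Phc2 included 0. The ratios between the paralogs were compared per library. The log2 ratio of Phc2 to Phc1 RPKM was -4.23 and -4.35 in the libraries labelled Phc1-KO, against -4.53 and -4.63 in ESC. That of Phc3 to Phc1 was -3.90 and -3.81 in Phc1-KO, against -4.07 and -4.08 in ESC. Neither ratio overlapped between the groups. The differences between group means were 0.30 and 0.21, each with p = 0.333 in a two-sided exact permutation test over libraries, which is the smallest p that 2 against 2 can give. For Phc2 over Phc3 the difference was 0.08 (exact permutation p = 0.667), with overlapping groups.

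Some markers of fibroblasts, the feeder cell type, were also higher in these libraries. Of 12 such markers, 7 were higher and 0 lower in Phc1-KO by edgeR, against 4.91% and 5.75% of all genes. Marker calls, here and in the label check above, were not followed with libraries left out, which changed the number of all genes called. The summed level of the 12 was 1293 and 1156 CPM in Phc1-KO against 467 and 464 CPM in ESC, with 0 of the 12 at 0 counts in any library. Most of that difference lay in S100a4, with 326 and 368 CPM in Phc1-KO against 42.9 and 45.0 CPM in ESC, and Postn, with 168 and 198 CPM against 4.63 and 4.93 CPM. The collagen genes did not pass, at log2 fold changes of 0.13 for Col1a1, 0.62 for Col1a2 and -0.28 for Col3a1, nor did Pdgfrb at 0.03 or Thy1 at 1.70. Of 7 macrophage markers tested, 0 were higher and 4 lower, beside the same shares of all genes, with sums over the 8 markers of 25.8 and 17.5 CPM in Phc1-KO against 45.5 and 40.9 CPM in ESC. Reads outside genes also differed within the Phc1-KO pair, at 1.08 per gene read in replicate 1 and 0.661 in replicate 2. The part of these differences in the Polyhomeotic values was not tested. As in any bulk measurement, a smaller share of cells with a given RNA and less RNA per cell cannot be told apart here.

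Whether the family differs between a neural progenitor and the stem cell line it came from was asked next. All 3 members differed, in opposite directions. Phc1 averaged 7.12 ± 0.831 RPKM in NPC and 86.9 ± 0.107 RPKM in ESC (SD, n = 2 each), and fell by 3.61 on the log2 scale (SE 0.16, edgeR adjusted p = 1.20e-05), a level 12.2-fold lower. Phc2 averaged 16.3 ± 4.58 RPKM in NPC and 3.63 ± 0.177 RPKM in ESC (SD, n = 2 each), and rose by 2.16 (SE 0.24, edgeR adjusted p = 3.04e-04), or 4.48-fold. Phc3 averaged 11.1 ± 1.34 RPKM in NPC and 5.16 ± 0.0239 RPKM in ESC (SD, n = 2 each), and rose by 1.11 (SE 0.14, edgeR adjusted p = 6.20e-04), or 2.16-fold.

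These 3 calls stand beside a background in which 61.3% of all tested genes were called in NPC against ESC, 30.4% higher and 30.9% lower, so that being called sets no gene apart. The median size of a log2 fold change over all tested genes was 0.91, below that of each member, though Phc3 at 1.11 lay little above it. Every alternative test, scaling, filter and left-out library kept each of the 3 calls with its direction. Without NPC 1 the Phc2 log2 fold change was 1.84 and without NPC 2 it was 2.43. Fibroblast markers were higher in NPC for 10 of 12 and lower for 1, with sums of 7313 and 11787 CPM in NPC against 467 and 464 CPM in ESC; their part in the Phc2 and Phc3 levels was not tested.

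Set directly against NPC, the libraries labelled Phc1-KO had Phc1 higher by a log2 fold change of 2.98 (SE 0.16, edgeR adjusted p = 2.06e-05), Phc2 at -2.49 (SE 0.24, adjusted p = 1.64e-04) and Phc3 at -1.53 (SE 0.15, adjusted p = 1.56e-04). In that comparison 64.9% of tested genes were called, 32.3% higher and 32.7% lower. The 3 comparisons share libraries, so they are not independent of each other.

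**Figure D2:**
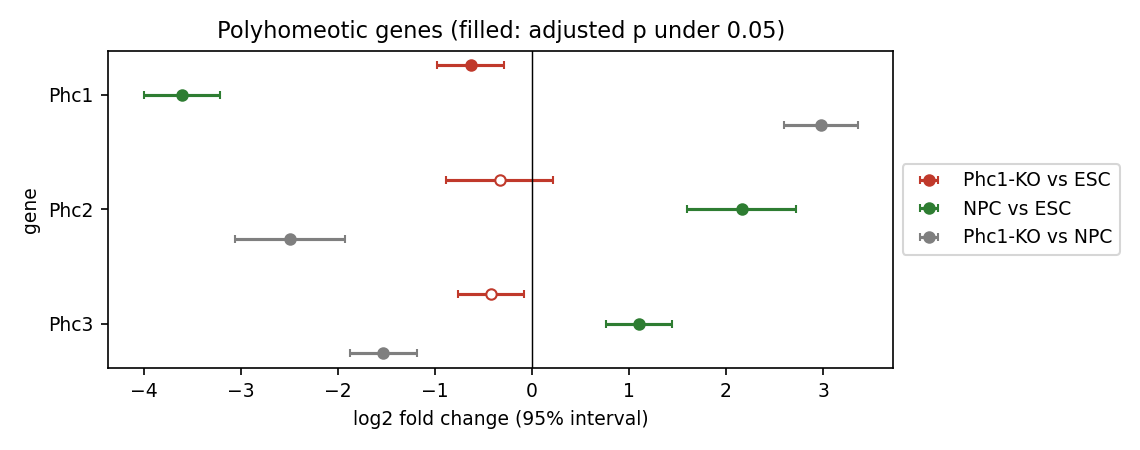
Log2 fold change (horizontal axis) with its 95% interval for each Polyhomeotic gene in 3 comparisons, from the edgeR fit over all genes; filled points passed an adjusted p of 0.05. Phc1 lies at -0.63 in Phc1-KO against ESC and -3.61 in NPC against ESC, and Phc2 and Phc3 lie above 0 only in NPC against ESC.

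The paralog make-up of Polyhomeotic RNA was computed per library as each gene's share of the summed RPKM. Phc1 made up 89.3% in both libraries labelled Phc1-KO, 20.6% and 20.7% in NPC, and 90.7% and 91.0% in ESC. Phc2 made up 4.77% and 4.39% in Phc1-KO, 52.2% and 41.2% in NPC, and 3.92% and 3.67% in ESC. Phc3 supplied the rest, at 5.97% and 6.34% in Phc1-KO, 27.2% and 38.2% in NPC, and 5.41% and 5.38% in ESC. Phc1 was the majority paralog in 4 libraries and the smallest part in both NPC libraries.

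Between group means, the Phc1 share differed by -1.55 percentage points for Phc1-KO against ESC, by -70.2 points for NPC against ESC and by 68.6 points for Phc1-KO against NPC. Each had p = 0.333 in a two-sided exact permutation test, the smallest possible, and in each the groups did not overlap. In NPC, Phc2 exceeded Phc1 by 2.53 and 1.99 times per length, whereas Phc1 exceeded Phc2 by 18.7 and 20.3 times in Phc1-KO and by 23.1 and 24.8 times in ESC. Phc2 stood at 1.92 and 1.08 times the Phc3 level per length in the 2 NPC libraries.

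**Figure D3:**
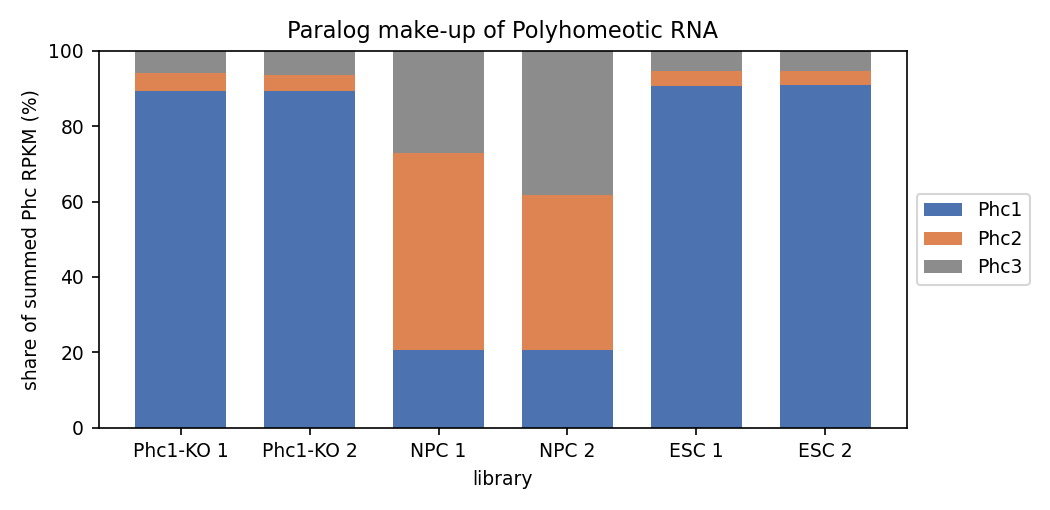
Share of the summed RPKM of the 3 genes (vertical axis, percent) for each library, with Phc1 at the bottom, then Phc2, then Phc3. Phc1 fills about the same part of the bar in Phc1-KO (89.3%) and ESC (90.7% and 91.0%), and 20.6% and 20.7% in NPC.

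Shares of raw reads, which do not depend on a length, gave the same order for Phc1 but not for the other paralogs. In NPC, Phc3 took 45.6% and 58.4% of Polyhomeotic reads and Phc2 took 41.9% and 30.2%, so their order in NPC depended on dividing by joined exon length, which is longest for Phc3. Phc1 took 79.6% (exact Clopper-Pearson 95% interval 78.7 to 80.5) and 79.2% (78.3 to 80.2) of Polyhomeotic reads in the libraries labelled Phc1-KO. In NPC it took 12.5% (11.6 to 13.4) and 11.4% (10.5 to 12.4), and in ESC 81.8% (81.0 to 82.6) and 82.1% (81.4 to 82.9). The Phc1-KO and ESC intervals did not overlap. They treat reads as independent and cover counting error within a library only, not the spread between libraries, so this does not set the groups apart. Since the reads carry no molecular identifiers, even the counting error may be understated.

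Summed over the family, Polyhomeotic RNA reached 69.0 and 56.6 RPKM in the libraries labelled Phc1-KO, 37.4 and 31.6 RPKM in NPC, and 95.7 and 95.6 RPKM in ESC. The log2 ratio of the sums was -0.61 for Phc1-KO against ESC and -1.48 for NPC against ESC (exact permutation p = 0.333 each, the smallest possible). The size of the second value depends on the length used, since it adds different genes: with coding lengths in place of joined exons it was -0.74. The higher Phc2 and Phc3 levels in NPC left the summed level below that of ESC under each length tried.

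Other subunits of canonical PRC1 were read from the same fit. Of 8 partner genes listed, 2 were higher in Phc1-KO than in ESC and 0 lower, with a median log2 fold change of 0.21, against 4.91% of all genes higher and a median over all genes of 0.00. Bmi1, the PCGF subunit that HD1 binds, had 11.0 and 11.95 RPKM in Phc1-KO, 21.3 and 21.4 RPKM in NPC, and 2.45 and 2.34 RPKM in ESC. Its 3 groups did not overlap and NPC was highest. It rose by 2.26 on the log2 scale in Phc1-KO against ESC (SE 0.14, edgeR adjusted p = 0.00164). This call held without each library in turn, and with the ESC pair counted as 1 (adjusted p = 0.0192).

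Cbx8, a chromodomain subunit, had 1.18 and 1.51 RPKM in Phc1-KO, 4.33 and 5.53 RPKM in NPC, and 0.504 and 0.248 RPKM in ESC. It was low in ESC, and the groups did not overlap. It rose by 1.84 in Phc1-KO against ESC (SE 0.37, edgeR adjusted p = 0.0270). By edgeR the adjusted p became 0.0806 without ESC 1, 0.209 without ESC 2, 0.0646 without Phc1-KO 1, 0.138 without Phc1-KO 2 and 0.102 with the ESC pair counted as 1. The other 6 did not pass in Phc1-KO. Their log2 fold changes were 0.37 for the RING ligase gene Ring1, 0.05 for its partner paralog Rnf2, -0.03 for Pcgf2, 0.39 for Cbx2, -0.28 for Cbx6 and -0.00 for Cbx7.

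In NPC against ESC, 4 of the 8 partners were higher and 1 lower, a count close to the 61.3% of all genes called. Their median log2 fold change was 0.72, against -0.01 over all tested genes. Ring1 rose by 1.10 (SE 0.20) and Bmi1 by 3.15 (SE 0.15). Among the chromodomain genes, Cbx6 rose by 1.11 (SE 0.20) and Cbx8 by 3.71 (SE 0.37). Cbx7, the main chromodomain gene of stem cells, had 4.27 and 8.84 RPKM in NPC against 39.3 and 39.5 RPKM in ESC and fell by 2.59 (SE 0.31). It was the only one of the 5 called partners with the direction of Phc1. Rnf2 had 51.2 and 53.1 RPKM in NPC against 48.0 and 48.1 RPKM in ESC, and did not pass (log2 fold change 0.12, 95% interval -0.18 to 0.42). Pcgf2, at -0.26, and Cbx2, at 0.34, did not pass either. The Cbx2 value turned on the NPC library: without NPC 1 it was 0.71 and passed (edgeR adjusted p = 0.00830), and without NPC 2 it was -0.17 (adjusted p = 0.420). Against NPC, the libraries labelled Phc1-KO had 1 partner higher, Cbx7, and 4 lower.

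**Figure D4:**
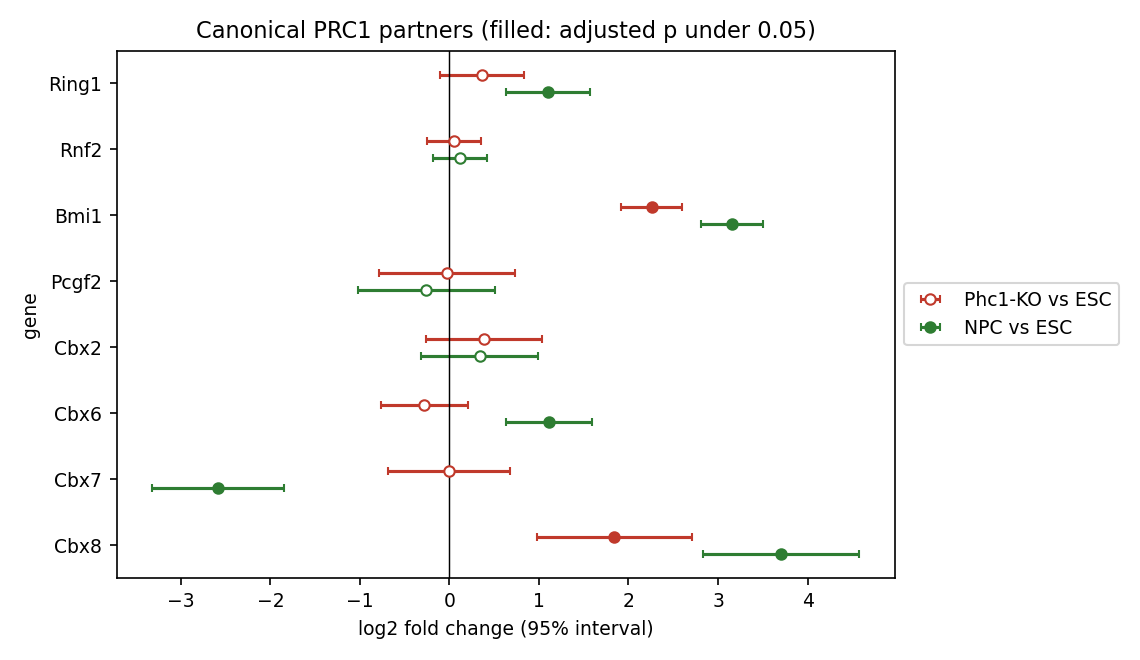
Log2 fold change (horizontal axis) with its 95% interval for 8 canonical PRC1 partner genes, in Phc1-KO against ESC and NPC against ESC; filled points passed an adjusted p of 0.05. Bmi1 and Cbx8 are filled and above 0 in both comparisons, and Cbx7 is filled below 0 only in NPC.

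Genes coding for other SAM-domain Polycomb proteins, relatives that can pair with similar domains, were listed as a second group. Of 11 listed, 10 were in the tables and 7 were tested; Samd7, Samd13 and L3mbtl4 had too few reads and Samd11 was not analysed here. In Phc1-KO against ESC, 0 were higher and 1 lower, beside 4.91% and 5.75% of all genes, with a median log2 fold change of -0.42 against 0.00. This was Sfmbt2, a repressor with MBT repeats, with 8.83 and 6.66 RPKM in Phc1-KO, 0.735 and 0.768 RPKM in NPC, and 19.8 and 19.6 RPKM in ESC. It was highest in ESC, with no overlap. It fell by 1.35 in Phc1-KO (SE 0.16, edgeR adjusted p = 0.00726), but had adjusted p = 0.0743 without ESC 1, 0.0762 without ESC 2 and 0.0643 with the ESC pair counted as 1.

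In NPC against ESC, 3 of these 7 were higher and 2 lower, beside 61.3% of all genes called in either direction, with a median log2 fold change of 0.57 against -0.01. Scml4 rose by 7.42 (SE 0.60), with 7.66 and 3.51 RPKM in NPC against 0.0319 and 0.0315 RPKM in ESC. L3mbtl3 rose by 1.43 (SE 0.19) and Sfmbt1 by 0.57 (SE 0.16), while Sfmbt2 fell by 4.71 (SE 0.19) and L3mbtl1 fell by 3.95 (SE 0.48). Sfmbt1 did not pass by edgeR without ESC 1 (adjusted p = 0.103), without ESC 2 (0.170) or with the ESC pair counted as 1 (0.148).

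Variant PRC1 complexes contain no Polyhomeotic subunit, and the PCGF proteins listed for them here are other than Bmi1 and Pcgf2. Of 15 genes for their subunits, all tested, 0 were higher and 1 lower in Phc1-KO against ESC, near the 4.91% higher and 5.75% lower of all genes, with a median log2 fold change of 0.11 against 0.00 over all genes. That gene was Pcgf5, with 4.02 and 4.05 RPKM in Phc1-KO, 5.20 and 4.08 RPKM in NPC, and 14.5 and 15.1 RPKM in ESC. ESC was the high group, and Phc1-KO lay just below NPC. Pcgf5 fell by 1.87 in Phc1-KO (SE 0.20, edgeR adjusted p = 0.00545). The adjusted p was 0.0629 without ESC 1, 0.0693 without ESC 2, 0.0618 without Phc1-KO 2 and 0.0523 with the ESC pair counted as 1.

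In NPC against ESC 4 variant genes were higher and 7 lower, beside 30.4% and 30.9% of all genes, with a median log2 fold change of -0.33 against -0.01. The largest changes were in L3mbtl2, which fell by 1.95 (SE 0.17), Pcgf6, which fell by 1.87 (SE 0.15), Pcgf5, which fell by 1.67 (SE 0.20), Yaf2, which rose by 1.65 (SE 0.17), and Usp7, which fell by 1.47 (SE 0.14).

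The chromosomal neighbours of the 3 genes were read because a deletion at Phc1 could be seen in genes beside it. M6pr, which codes for the cation-dependent mannose-6-phosphate receptor, faces Phc1 tail to tail. The annotation leaves 50 bases between their ends, chr6:122267699-122267748 in mm9, and the plus strand of that gap is shown because no source used here gives the strand setting of the counts, so reads running past either gene's end could not be assigned by strand.
Gap between M6pr and Phc1: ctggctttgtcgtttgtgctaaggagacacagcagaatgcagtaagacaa
M6pr had 231 and 285 CPM in the libraries labelled Phc1-KO, 98.6 and 82.3 CPM in NPC, and 191 and 189 CPM in ESC. It was highest in Phc1-KO and lowest in NPC, without overlap. Its log2 fold change in Phc1-KO against ESC was 0.44 (SE 0.15, 95% interval 0.08 to 0.81) and did not pass (edgeR adjusted p = 0.111), while in NPC against ESC it fell by 1.07 (SE 0.16, adjusted p = 0.00102). M6pr and Phc1 thus lay on opposite sides of ESC in Phc1-KO and on the same side in NPC.

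Further from Phc1, Rimklb, which codes for a synthase of beta-citrylglutamate, had 79.1 and 89.9 CPM in Phc1-KO, 39.1 and 15.6 CPM in NPC, and 81.0 and 91.0 CPM in ESC. The Phc1-KO and ESC values overlapped (log2 fold change -0.03, 95% interval -0.87 to 0.82). Mfap5, a microfibril protein gene of connective tissue, had 9.95 and 9.14 CPM in Phc1-KO, 0.592 and 1.04 CPM in NPC, and 3.15 and 4.20 CPM in ESC. It rose by 1.38 in Phc1-KO against ESC (SE 0.30, edgeR adjusted p = 0.0332), in libraries where 7 of the 12 fibroblast markers were higher too; the part of those cells was not tested. By edgeR its adjusted p was 0.322 without ESC 1, 0.202 without ESC 2, 0.0984 without Phc1-KO 1, 0.129 without Phc1-KO 2 and 0.229 with the ESC pair counted as 1.

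The remaining neighbours of Phc1 had few reads or none. Klrg1 had 11 and 8 reads in the libraries labelled Phc1-KO, 0 and 0 in NPC, and 0 and 1 in ESC, too few to be tested. The gene 1700063H04Rik had 15 and 21 reads in Phc1-KO, 0 and 0 in NPC, and 11 and 15 in ESC, and Mug2 had 0 reads in all 6 libraries. Mfap5 was the only neighbour called in Phc1-KO against ESC, 1 of 13 tested around the 3 genes, beside 10.7% of all genes.

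**Figure D5:**
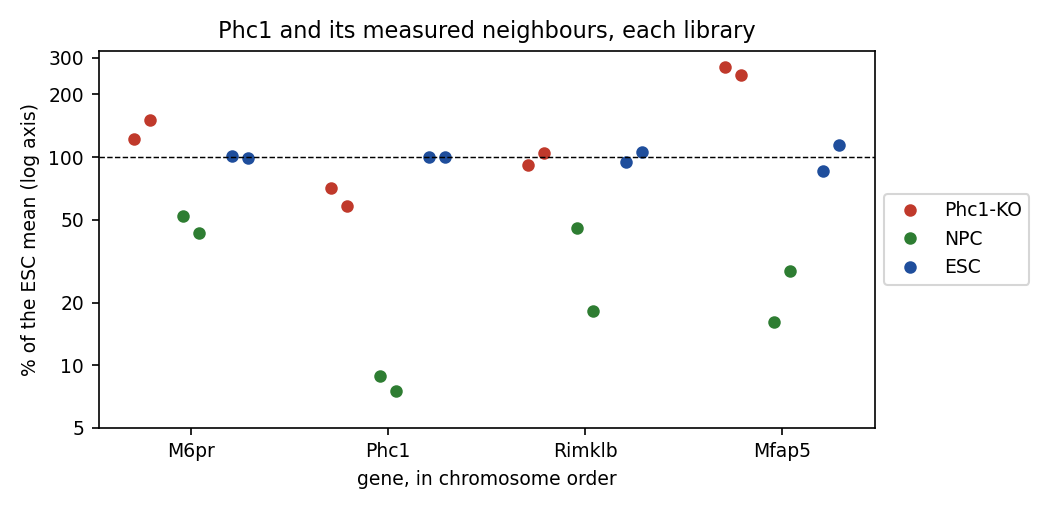
Level of Phc1 and its measured neighbours in each library as a percent of the ESC mean (vertical axis, logarithmic; the dashed line marks 100%), in chromosome order. In Phc1-KO, Phc1 stands at 70.9% and 58.1% while M6pr beside it stands at 122% and 150%; in NPC all 4 genes are below 100%.

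In NPC against ESC, 3 of the 13 tested neighbours were higher and 7 lower, beside 30.4% and 30.9% of all genes, with a median log2 fold change of -0.91. With so many genes called, these counts set no locus apart. All 3 higher ones lie beside Phc2 at higher coordinates, namely A3galt2, Zfp362 and Trim62. A3galt2, a glycosyltransferase gene on the same strand, starts 2482 bases beyond the annotated end of Phc2. It had 0.262 and 0.242 CPM in Phc1-KO, 2.83 and 2.79 CPM in NPC, and 0.493 and 0.669 CPM in ESC, with a log2 fold change of 2.26 in NPC against ESC (SE 0.33). Zfp362 rose by 2.91 (SE 0.52) and Trim62 by 3.86 (SE 0.39). The called neighbours of Phc3 went the other way from Phc3 itself, as Gpr160 fell by 1.90 (SE 0.24), Prkci by 0.91 (SE 0.16) and Skil by 1.74 (SE 0.21). The called neighbours of Phc1, M6pr, Rimklb, Mfap5 and 1700063H04Rik, were all lower in NPC.

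Genes with the most similar pattern to each member were sought among 11327 tested genes of at least 4 CPM on average. Likeness was the root mean square difference of log2 CPM, each gene centred on its own mean over the 6 libraries. Nearest to Phc1 were Abcg1, a sterol transporter, at 0.08, Alg13, a glycosylation enzyme, at 0.10 and Itpk1, an inositol phosphate kinase, at 0.11. Nearest to Phc2 were Ssh2, a cofilin phosphatase, at 0.08, Cdr2l at 0.10 and Letmd1 at 0.10. Nearest to Phc3 were Lamp2, a lysosomal membrane protein, at 0.04, Cnot6l, a deadenylase subunit, at 0.05 and Vezt, an adherens junction protein, at 0.06. Between the members themselves the distance was 0.52 for Phc2 and Phc3, 2.17 for Phc1 and Phc3 and 2.63 for Phc1 and Phc2. Over these 6 libraries Phc2 and Phc3 were the most alike pair of the family.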

How the data were processed

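The authors deposited unnormalized read counts for each Ensembl gene. STAR, HTSeq and mm9 are named, per the submitters' processing notes. Their versions, the strand setting and the gene annotation used for counting are not stated in the sources. Per the labels' protocols, ribosomal RNA was depleted and TruSeq libraries were made; reads were 50 bases, single end. Each table held 37620 genes and 5 closing tallies, which were left out; reads outside genes numbered 0.661 to 1.09 per gene read. GENCODE M1 (mm9) named 37205 genes and left 415 unnamed.

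All 6 libraries were fitted together with edgeR 4.0.16 in R 4.3.3 (quasi-likelihood F test, TMM, filterByExpr with a minimum count of 10 and total of 15), leaving 3 residual degrees of freedom and 17489 genes. P-values were adjusted by Benjamini-Hochberg with a threshold of 0.05. SE was the log2 fold change over the square root of F. RPKM used joined exon length. Shares and sums were compared by exact permutation. The likeness measure added 0.5 CPM. Sequences came from the mm9 transcripts and genome. The fit was tested on simulated data.

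Alternatives were DESeq2 1.42.0, limma-voom (limma 3.58.1), other scalings, no filter, fits of 2 groups, a replicate block, each library left out, the ESC pair counted as 1, and other gene lengths. Those for named genes outside the family were added after the data had been seen. Named genes were the members, all listed canonical partners (a further item is not reported here), for the other lists those called or the 5 largest changes, the 3 nearest coding genes on each side, and the 3 most alike genes. Members and lists were chosen with earlier results of these data known. Figures were drawn with matplotlib 3.10.9.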

Additional observations from a re-analysis of the deposited data

How the results depend on the processing

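The directions of Phc1, Phc2 and Phc3 held in all 3 comparisons under every alternative run, and the calls against NPC and in NPC against ESC held too. In Phc1-KO against ESC, Phc1 lost its call with no low-count filter (log2 fold change -0.63) and with the ESC pair counted as 1 (-0.63). The call was also lost without ESC 1, without ESC 2 and without Phc1-KO 2. Leaving out 1 library each, the Phc1 log2 fold change ran from -0.78 to -0.49. In that comparison 1864 genes were called, 3899 when only the 2 groups were fitted, 145 with the ESC pair counted as 1, and between 92 and 3715 with 1 library left out (112 without ESC 1, 92 without ESC 2, 138 without Phc1-KO 2, 1173 without Phc1-KO 1, 3715 without NPC 1 and 3701 without NPC 2). DESeq2 called 1342 higher and 1142 lower, total-count scaling 683 and 1223, against 858 and 1006. Of the 5 genes called there among the partners, SAM-domain genes, variant subunits and neighbours, Bmi1 alone kept its call without each library. All 5 kept theirs by DESeq2. Calls of marker genes were not followed through these alternatives.

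Length choice moved the shares and sums. For NPC against ESC the Phc1 share differed by -72.2 points with the longest transcript and -69.9 with coding length, and the log2 ratio of sums was -1.21, -0.74 and, with no length, -0.83. For Phc1-KO against ESC the share differed by -1.85, -2.68 and, with no length, -2.55 points. For Phc1-KO against NPC the share differed by 70.3, 67.3 and 67.5 points, and the log2 ratio was 0.60, 0.15 and 0.24, in the same order. The numbers of the replicates did not pair the samples: deviations of same-numbered libraries correlated across genes at 0.02, 0.07 and -0.03. With a replicate block Phc1 had a log2 fold change of -0.64 in Phc1-KO against ESC (edgeR adjusted p = 0.0456), and 1427 genes were called.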
